A study of Mus musculus with 28 samples.

Results

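The enzymes that write and remove DNA methylation were examined in peak lists from mouse embryonic stem cells (mESCs). The 8 genes were chosen by function and not by a measured value, although earlier results of these data were known. They are Dnmt1, Uhrf1, Dnmt3a, Dnmt3b, Dnmt3l, Tet1, Tet2 and Tet3, out of 22367 protein-coding genes on placed chromosomes. Each gene was taken with its whole body and 20 kb on each side (the window), which gave windows that sum to 809 kb. The cells were the haploid HATX line of mixed genomic background, grown in serum with LIF, either WT or carrying a deletion of Spen (clone 2, written Spen KO). Both carry an inducible Xist transgene, and the labels name no inducer for these samples. Spen is an RNA-binding repressor that is needed for Xist to silence the X chromosome. All Spen KO libraries came from 1 clone, so that the deletion and other differences of that clone cannot be told apart. The 28 samples were sequenced chromatin immunoprecipitates (ChIP-seq) with 4 antibodies, 2 libraries each per genotype, and their inputs. The lists used were 1 per genotype for H3K4me3 (a mark of active promoters), H3K27Ac (a mark of active promoters and enhancers) and H3K9me3 (a mark of silenced chromatin), and 1 per library for the transcription factor Oct4.

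Methylation of cytosine in CpG dinucleotides is copied at replication by Dnmt1, which is brought to half-methylated DNA by Uhrf1. Dnmt3a and Dnmt3b place methylation on unmethylated DNA, and Dnmt3l is a partner without catalytic activity that stimulates them. The Tet enzymes oxidise methylcytosine to hydroxymethylcytosine and further products, which leads to demethylation. In mESCs Tet1 and Tet2 are the main Tet enzymes, whereas Tet3 is known mostly from the oocyte, the zygote and differentiated cells.

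Read numbers were not analysed here, so depth is unknown for each library, and each histone mark had 1 list per genotype, which leaves no replicate test. Lists differed in length. WT and Spen KO held 34823 and 31091 H3K4me3 peaks, 13922 and 11932 H3K27Ac peaks, and 53745 and 70268 H3K9me3 domains. For Oct4, list length was 1806 (replicate 1) and 4111 (replicate 2) for WT, and 2617 and 3028 likewise for Spen KO. WT replicate 1 stood apart, with 73.8% of its peaks within 1000 bp of a transcript start against 21.0 to 26.9% in the other libraries. Of the mESC marker genes found in the annotation, 7 of 7 had promoter peaks of H3K4me3 and H3K27Ac in both genotypes, and 0 of 11 markers of endoderm, mesoderm, neural cells and fibroblasts had promoter H3K27Ac in either, although 11 of 11 had H3K4me3. The lists gave no check of the deletion, since H3K4me3 covered 8.97 kb of the Spen gene in WT and 24.0 kb in Spen KO. Spen KO peaks were also unevenly spread over chromosomes. On chromosomes 10, 12 and 17, which carry Dnmt3l and Tet1, Dnmt3a, and Uhrf1, the bases under H3K27Ac peaks in Spen KO were 0.586, 0.596 and 0.582 of those in WT, against 0.793 over the whole list. Those chromosomes were also low in Spen KO for H3K4me3 (0.634, 0.653 and 0.633, whole list 0.780) and H3K9me3 (0.660, 0.674 and 0.621, whole list 0.941). The part of this chromosome difference in the values of those genes was not tested.

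All 8 genes carried H3K4me3 at a promoter in both genotypes. A promoter peak here means that at least 1 bp of a peak lay within 1000 bp of an annotated transcript start, a condition met by 65.7% of all genes in WT and 64.3% in Spen KO. Promoter H3K27Ac was less common, at 20% and 21% of all genes, and was found at 7 of the 8 in WT and 6 in Spen KO. Tet3 lacked it in both genotypes and Dnmt3b lacked it in Spen KO. A promoter peak in WT and not in Spen KO was thus seen at 0 of 8 for H3K4me3 (2.03% of all genes) and at 1 of 8 for H3K27Ac (3.17%). The reverse was seen at 0 of 8 for both marks (0.572% and 4.25%). H3K9me3 was found at none of the 8 promoters, against 10.9% of all genes in WT and 10.6% in Spen KO. With the 5′ end of each gene as its only start, promoter H3K27Ac was found at 5 of the 8 in WT and 4 in Spen KO. The promoter peaks of Dnmt3a and Dnmt3l lay at internal starts. The share of all genes was not computed under that rule.

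**Figure D1:**
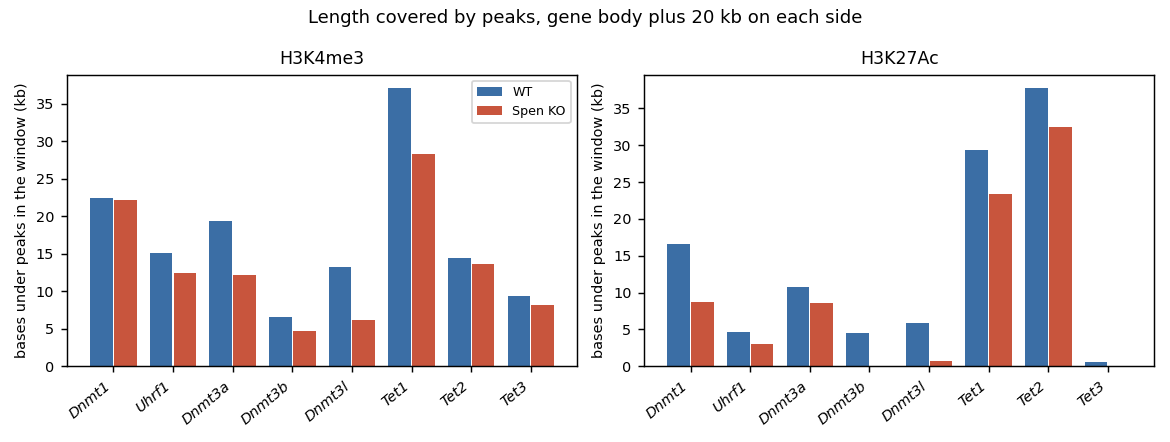
Bases under H3K4me3 (left) and H3K27Ac (right) peaks in kb for each gene with 20 kb on each side, with WT in blue and Spen KO in red and 1 list per genotype. Tet1 and Tet2 had the longest acetylated stretches in both genotypes, and Dnmt3b and Tet3 had no H3K27Ac in Spen KO.

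Over the 8 windows, H3K4me3 covered 138 kb in WT and 108 kb in Spen KO, in 57 and 55 peaks. The ratio was 0.783, beside 0.780 for the whole list. H3K27Ac covered 110.0 kb in 48 peaks in WT and 76.9 kb in 29 peaks in Spen KO, a ratio of 0.699 where the whole list had 0.793. Within the gene bodies alone that ratio was 0.665. Over the windows it was 0.752 in lists cut to equal length by score, and 0.930 with the stronger 50% of every list. For H3K4me3 these settings gave 0.808 and 0.657. The whole-list ratios were not computed under these settings. The plot of covered bases shows that the length in the window fell short of WT at every gene for both marks. It did so by little for H3K4me3 at Dnmt1 (22.5 and 22.3 kb), and wholly for H3K27Ac at Dnmt3b (4.50 and 0 kb) and Tet3 (0.558 and 0 kb). Within the gene body, Uhrf1 was slightly longer in Spen KO for both marks. Its body held 5.716 kb of H3K4me3 in WT and 5.885 kb in Spen KO, and 0.819 and 0.875 kb of H3K27Ac. In lists cut to equal length by score, Tet3 had 0 kb of H3K27Ac in both genotypes. For the 4 genes on chromosomes 10, 12 and 17 the ratio was 0.695 for H3K4me3 and 0.706 for H3K27Ac. For the other 4 it was 0.923 and 0.693. This split was chosen after the lists had been seen.

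Peaks found in WT alone were 11 of 57 for H3K4me3 (19.3%, whole list 23.2%) and 19 of 48 for H3K27Ac (39.6%, whole list 39.8%), so that both shares were near the background. Peaks found in Spen KO alone took a smaller share than in the whole lists, a difference that was not tested, at 2 of 55 for H3K4me3 (3.64%, whole list 9.49%) and 1 of 29 for H3K27Ac (3.45%, whole list 29.4%). The H3K27Ac peak found in Spen KO alone was at the start of Eif3g, in the flank of Dnmt1. In lists cut to equal length by score, H3K27Ac peaks found in WT alone fell from 19 to 11.

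To compare strength, the strongest promoter peak of each gene was ranked in its own list, where percentile 100 is the top, separately for the scores of the 2 libraries. Over all genes with a promoter peak, the median percentile of H3K4me3 was 79.1 in WT and 76.9 in Spen KO, and over the 8 genes it was 74.3 and 80.7. For H3K27Ac it was 66.8 and 64.2 over all genes, 80.6 over the 7 genes with a peak in WT, and 86.8 over the 6 in Spen KO. The last 2 medians do not compare the same genes. Dnmt3b, at percentile 10.5 in WT, is in the WT median alone. By the mean of both scores, the percentile of H3K4me3 was lower in Spen KO at 5 of 8 genes (59% of all genes with a peak in both) and that of H3K27Ac at 3 of 6 (51.8%). By the lower of both scores the latter was 5 of 6. The scores of both Spen KO libraries ranked below those of both WT libraries at Dnmt3a and Dnmt3l for H3K4me3 (2 of 8, with 27% of all genes) and at Uhrf1, Dnmt3l and Tet1 for H3K27Ac (3 of 6, with 22.4%). They ranked above at Dnmt1 and Tet3 for H3K4me3 (2 of 8, with 13.8%) and at Tet2 for H3K27Ac (1 of 6, with 19.5%). The genes ranked below lie on chromosomes 10, 12 and 17, which were low in Spen KO as a whole, and those ranked above lie on other chromosomes. The part of the chromosome difference in these ranks was not tested.

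**Figure D2:**
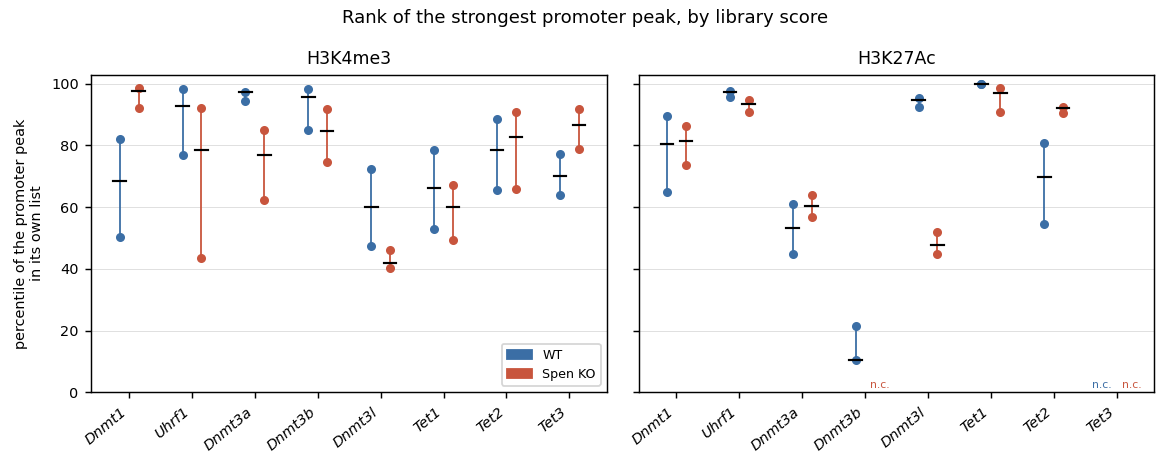
Percentile of the strongest promoter peak within its own list for H3K4me3 (left) and H3K27Ac (right), where each point is the score of 1 library, lines join the libraries of a genotype, black ticks mark the percentile of the mean score and n.c. means no peak was called. Dnmt3l H3K27Ac is at 92.5 and 95.4 in WT against 44.8 and 51.9 in Spen KO, while Tet2 H3K27Ac is higher in both Spen KO libraries. The Tet2 peak in Spen KO also spans a further WT peak.

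Dnmt1, the maintenance methyltransferase (chr9:20711650-20757317 in mm9, minus strand), had a broad H3K4me3 domain over its start. In WT it was 1 peak of 10.9 kb at percentiles 50.2 and 82.1 in the 2 libraries. In Spen KO that stretch was called as 2 peaks, of which the one at the start was 3.25 kb wide and ranked at 92.1 and 98.6. The higher rank thus went with a shorter peak over the same bases, 9.96 kb of the gene body in WT and 9.75 kb in Spen KO. Promoter H3K27Ac overlapped between the genotypes, at percentiles 64.9 and 89.7 in WT against 86.3 and 73.6 in Spen KO. Inside the gene, H3K27Ac went from 10.1 kb in WT to 1.59 kb in Spen KO. Over the whole window it was 16.6 against 8.72 kb, but 6.23 against 5.84 kb with only the stronger 50% of every list, so that most of the difference lay in weaker peaks. Of the 5 intragenic WT peaks, which lay between 3.54 and 37.7 kb from the start, 4 had no counterpart in Spen KO, and the percentiles of those 4 ranged from 2.51 to 63.5. No Oct4 peak was called in the Dnmt1 window in any library.

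Uhrf1 (chr17:56442744-56462909, plus strand), which recognises half-methylated CpG, had a compact acetylated promoter. Its H3K27Ac peak was 0.824 kb wide at percentiles 97.6 and 95.6 in WT, and 0.875 kb wide at 90.9 and 94.7 in Spen KO. H3K4me3 extended over 6.50 kb in WT and 6.75 kb in Spen KO, and its percentiles overlapped (98.2 and 76.8 in WT, 92.1 and 43.7 in Spen KO). The other H3K27Ac peaks of the window lay in the upstream flank near the start of Plin3. The only Oct4 peak was in WT replicate 1, at 10.00-fold enrichment over input, in the downstream flank near the start of Kdm4b.

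The de novo methyltransferase genes differed among themselves. Dnmt3a (chr12:3806007-3914443, plus strand) had a strong H3K4me3 peak at its first starts, at percentiles 94.5 and 97.5 in WT against 85.0 and 62.2 in Spen KO. H3K27Ac was not found there in either genotype. It lay instead at the internal starts between 77.4 and 86.9 kb, as a cluster of 6 peaks with 8.71 kb acetylated in WT and 5 peaks with 8.58 kb in Spen KO. Clusters here join peaks at most 1000 bp apart. This one ranked 334 of 9312 clusters in WT and 248 of 8200 in Spen KO by acetylated length. The strongest promoter peak was not the same one in both lists, at 79.4 to 80.7 kb in WT (percentiles 44.7 and 61.1) and at 84.3 to 85.5 kb in Spen KO (56.8 and 64.0). Dnmt3a is known to have a short isoform that starts within the gene and is the main one in mESCs. One further H3K27Ac peak, of 2.05 kb at 64.8 kb from the start and percentile 61.4, was called in WT alone.

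Dnmt3b (chr2:153475186-153513466, plus strand), the other de novo enzyme, kept H3K4me3 and was without a called H3K27Ac peak in Spen KO. The H3K4me3 percentiles were 85.2 and 98.5 in WT against 74.7 and 91.7 in Spen KO, and the libraries overlapped. In WT the window held 3 H3K27Ac peaks with 4.50 kb, and none of them was matched in Spen KO. The promoter peak was 2.89 kb wide but weak, at percentiles 10.5 and 21.6 of the list. When the lists were cut to equal length by score, it dropped out of the WT list as well, and the difference between genotypes at this promoter was gone. The other 2 WT peaks, at 2.80 kb inside the gene (percentile 62.0) and in the upstream flank (percentile 48.5), stayed in that shortened list. The libraries disagreed on the peak at 2.80 kb, at percentiles 81.4 and 5.28. For the flank peak they were 43.8 and 54.1.

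Dnmt3l (chr10:77504692-77526367, plus strand) showed the largest drop in promoter H3K27Ac rank of the 6 genes with a peak in both genotypes. In WT its strongest H3K27Ac peak was at percentiles 95.4 and 92.5, and in Spen KO at 51.9 and 44.8. That peak lay just upstream of the internal starts at 7.90 and 8.01 kb from the 5′ end. The acetylated length in the window went from 5.90 kb in 5 peaks to 0.772 kb in 1 peak. H3K4me3 went the same way: 1 WT peak of 6.78 kb at percentiles 47.3 and 72.4 corresponded to 2 Spen KO peaks, of which the stronger was 1.19 kb wide at 40.4 and 46.3. Chromosome 10 as a whole was low in Spen KO, as given above. No Oct4 peak was called in the Dnmt3l window in any library.

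The sequence before the start bears on methylation itself, since CpG-poor promoters can be methylated and CpG-rich ones are mostly kept free of it. The 250 bases upstream of a start are shown for Dnmt3b, where the H3K27Ac call differed between the lists, for Dnmt3l, where its rank was lower in Spen KO, and for Tet2, where its rank was higher and CpGs were most numerous among the 8 first starts. They were read from the mm9 genome on the strand of the gene. Every CpG is in capitals.
Dnmt3b, first start (chr2:153474936-153475185, plus strand): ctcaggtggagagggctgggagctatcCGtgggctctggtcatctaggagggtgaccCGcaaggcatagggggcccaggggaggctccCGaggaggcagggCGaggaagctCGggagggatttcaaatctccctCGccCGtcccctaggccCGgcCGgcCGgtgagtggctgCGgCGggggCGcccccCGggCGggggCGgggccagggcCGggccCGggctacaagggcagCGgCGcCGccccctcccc
Dnmt3l, start at 7.90 kb (chr10:77512337-77512586, plus strand): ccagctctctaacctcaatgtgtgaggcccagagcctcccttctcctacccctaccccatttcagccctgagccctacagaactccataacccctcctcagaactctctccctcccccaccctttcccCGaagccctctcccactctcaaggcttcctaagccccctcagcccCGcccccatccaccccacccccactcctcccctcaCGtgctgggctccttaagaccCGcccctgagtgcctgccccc
Tet2, first start (chr3:133207355-133207604, minus strand): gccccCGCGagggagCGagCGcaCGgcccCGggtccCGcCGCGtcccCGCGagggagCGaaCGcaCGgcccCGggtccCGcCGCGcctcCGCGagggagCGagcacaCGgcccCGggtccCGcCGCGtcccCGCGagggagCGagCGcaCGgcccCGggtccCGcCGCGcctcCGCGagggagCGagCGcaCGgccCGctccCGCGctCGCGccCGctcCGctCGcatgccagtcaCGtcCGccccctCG
They held 21, 4 and 51 CpGs. Over all genes the median was 8 with quartiles of 3 and 18, and the count of Tet2 was higher than that of 99.9% of genes. At their first starts Dnmt1 had 13 CpGs in this window, Tet3 had 17, Uhrf1 had 10, Tet1 had 4, Dnmt3l had 3 and Dnmt3a had 2. The count depended on the start. Uhrf1 had 30 before its start at 0.992 kb, and Dnmt3a had 40 before its start at 1.153 kb. The values over all genes are for the 5′ end of each gene, whereas the Dnmt3l sequence shown is from an internal start.

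**Figure D3:**
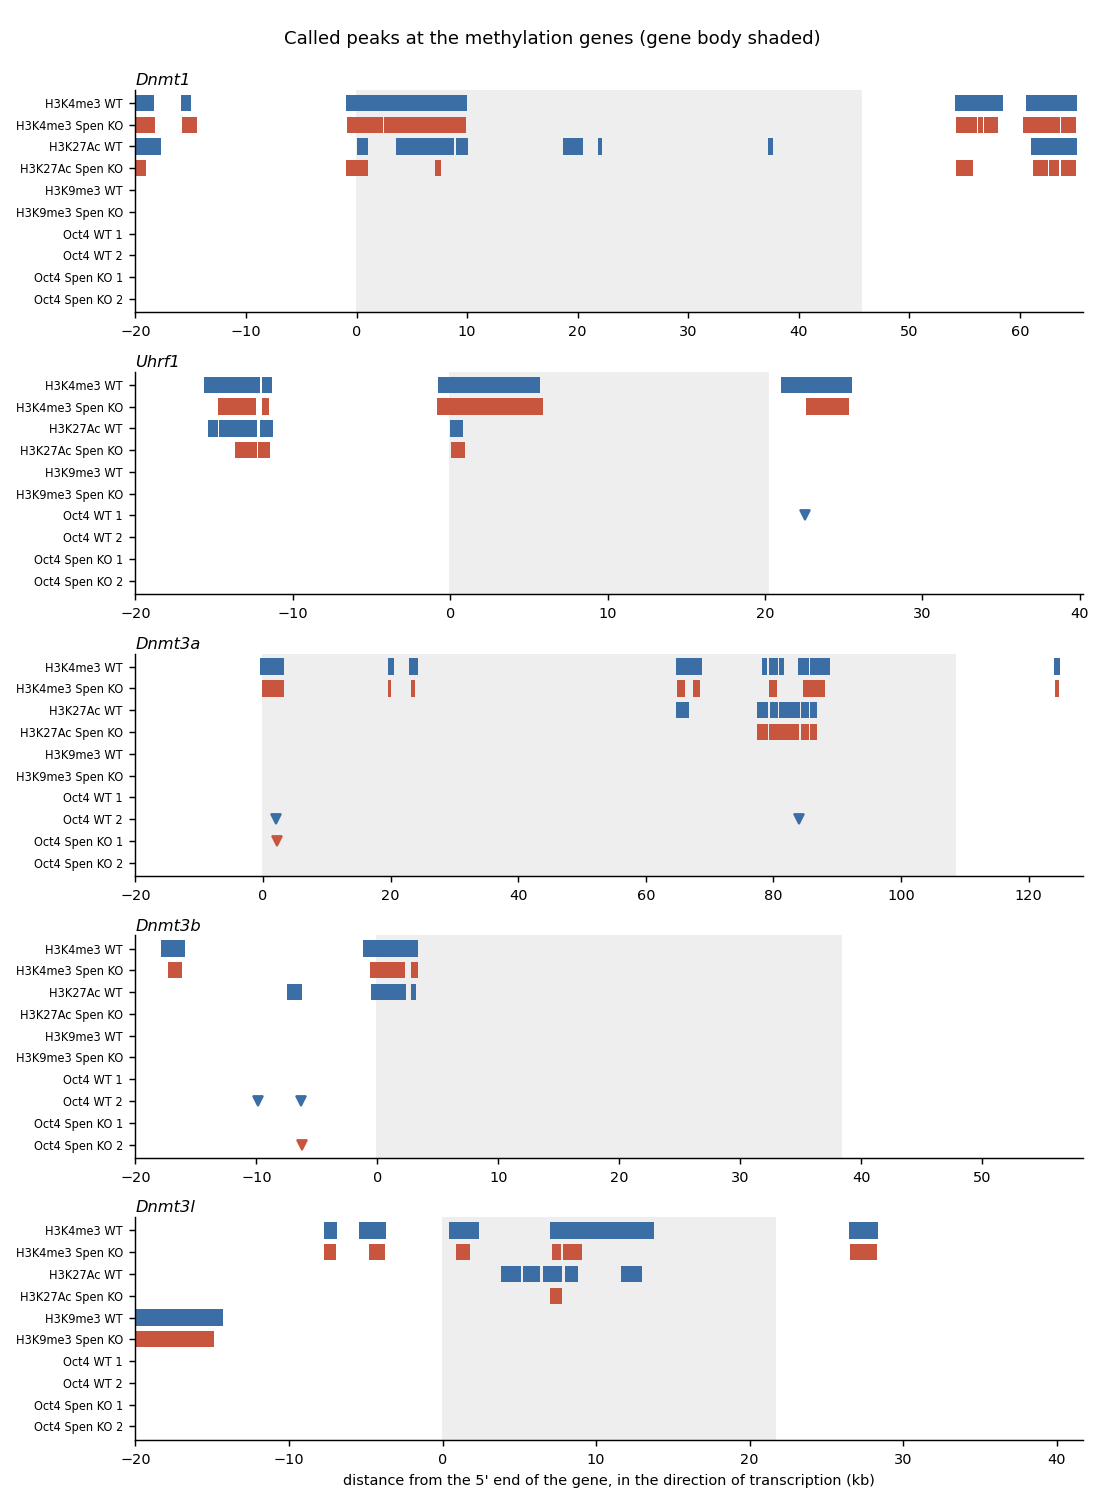
Positions of all called peaks at Dnmt1, Uhrf1, Dnmt3a, Dnmt3b and Dnmt3l in kb from the 5′ end of each gene, with the gene body shaded, bars for histone marks (1 list per genotype), triangles for Oct4 peaks (1 row per library), WT in blue and Spen KO in red. H3K27Ac bars thin out in Spen KO at Dnmt1, Dnmt3b and Dnmt3l, while the internal Dnmt3a cluster is present in both genotypes.

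Tet2 and Tet1 held the longest acetylated stretches of the 8 genes. Tet2 (chr3:133126643-133207354, minus strand) had 7 H3K27Ac peaks in WT that ran from -0.723 to 39.3 kb of the start with gaps of at most 1000 bp. With 37.7 kb acetylated, this was the cluster ranked 3 of 9312 in WT. In Spen KO the cluster ran to 30.9 kb with 30.8 kb acetylated in 4 peaks and ranked 8 of 8200. The downstream end of the cluster was thus shorter, with weak peaks left at 34.9 and 37.6 kb (percentiles 22.4 and 25.8). The WT peaks there, which began at 33.4 and 35.9 kb, were weak as well (16.96 and 26.6). The strong peak before them ended at 33.1 kb in WT and 30.9 kb in Spen KO. With the stronger 50% of every list, the window held 30.847 kb in WT and 30.802 kb in Spen KO. Most of the difference in acetylated length thus lay in weaker peaks. The peak at the start ranked higher in Spen KO. At the start, H3K27Ac was at percentiles 54.6 and 80.6 in WT against 90.5 and 92.3 in Spen KO. These were unlike peaks, since the Spen KO peak ran from -0.835 to 2.869 kb. It spanned the WT peak at the start, of 2.237 kb at percentile 69.7, and the next WT peak, of 1.145 kb at 33.7. H3K4me3 at the start overlapped between the genotypes, at 88.5 and 65.6 in WT against 90.9 and 65.8 in Spen KO.

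Tet1 (chr10:62267318-62361866, minus strand) had one of the strongest acetylated promoters of the genome in WT. Its H3K27Ac peak over the start ranked 12 of 13922, at percentiles 99.84 and 99.82, and in Spen KO the percentiles were 98.7 and 90.9. These were unlike peaks, since the Spen KO peak, from -2.56 to 6.11 kb, spanned what was called in WT as 2 peaks, of 6.36 kb at percentile 99.9 and of 2.151 kb at 49.7. The cluster around the start, from -5.81 to 16.8 kb in WT, held 21.9 kb in WT (rank 35) and 21.4 kb in Spen KO (rank 32). Its length was thus nearly the same. Chromosome 10 as a whole was low in Spen KO, and the part of this in the Tet1 values was not tested. The difference in the window, 29.3 against 23.4 kb, came mostly from 5 weaker WT peaks between 18.4 and 52.1 kb, none of which was called in Spen KO. H3K4me3 covered 37.1 kb of the Tet1 window in WT, rank 16 of 17639 genes, and 28.3 kb in Spen KO, rank 38 of 17361. Its strongest promoter peak was not at the first start but at one 33.8 kb inside the gene. The percentiles there were 52.8 and 78.5 in WT against 67.3 and 49.2 in Spen KO. By the mean score, the peak at the first start was weak, at percentile 16.6 in WT and 7.14 in Spen KO. The strongest H3K4me3 peak of the gene body lay at no annotated start. It ran from 6.256 to 9.947 kb in WT (percentile 88.7) and from 6.233 to 8.787 kb in Spen KO (67.6).

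Tet3 (chr6:83312367-83391672, minus strand) was the member without acetylation. H3K4me3 at its start ranked at percentiles 64.1 and 77.4 in WT against 79.0 and 91.7 in Spen KO, in peaks of 1.70 and 1.51 kb. The only H3K27Ac peak of the window was a WT peak of 0.558 kb in the downstream flank near the start of Bola3. Tet3 was also the only gene of the 8 with H3K9me3 inside its body, a domain of 5.60 kb that began 35.7 kb from the start in WT and one of 4.20 kb that began at 34.5 kb in Spen KO. Both were weak, at percentiles 5.17 and 11.98 of their lists.

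H3K9me3 was otherwise found only in flanks. It was called in 3 of the 8 windows in each genotype, against 58.9% of all genes in WT and 58.9% in Spen KO. A strong domain lay upstream of Dnmt3l, from -23.5 to -14.3 kb of the 5′ end in WT (percentile 96.8) and from -22.9 to -14.9 kb in Spen KO (percentile 95.7). A domain of medium rank lay downstream of Tet2, at percentile 48.6 in WT and 63.8 in Spen KO. All 3 WT domains overlapped a Spen KO domain and the reverse, where 11.8% of WT and 23.2% of Spen KO domains in the whole lists had no counterpart.

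**Figure D4:**
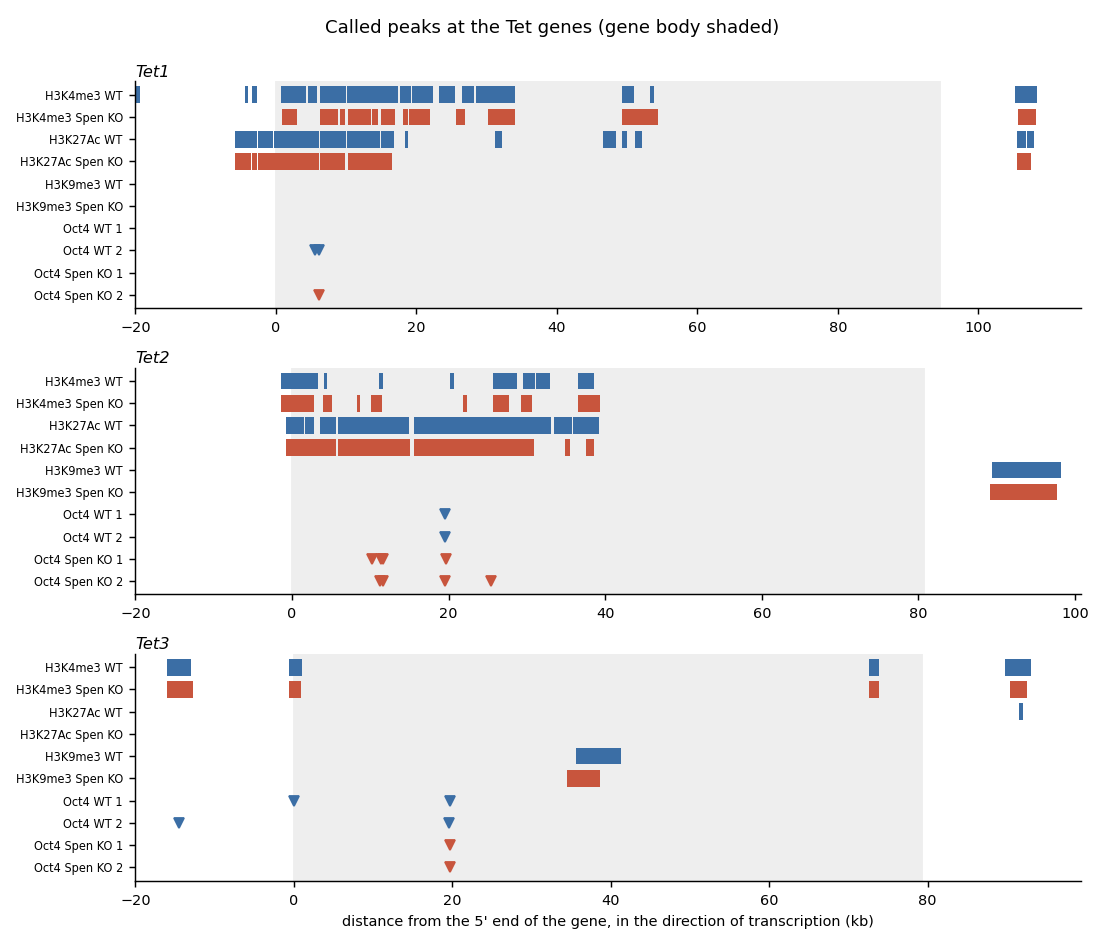
Positions of all called peaks at Tet1, Tet2 and Tet3 in kb from the 5′ end of each gene, with the gene body shaded, bars for histone marks (1 list per genotype), triangles for Oct4 peaks (1 row per library), WT in blue and Spen KO in red. Oct4 is called in all 4 libraries at 19.6 kb in Tet2, inside acetylated chromatin, and at 19.7 kb in Tet3, where no histone mark was called.

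Oct4, a core pluripotency factor that is known to act on Tet1 and Tet2 in mESCs, could be compared between libraries. With 2 libraries against 2, an exact permutation test cannot give a two-sided p below 0.333. The labels do not say whether the libraries came from separate cultures, and the authors' methods call replicate libraries technical, in a passage on the histone marks. The SDs and p-values over 2 libraries may therefore measure technical spread alone. Over all 8 windows, the number of Oct4 peaks was 4 (replicate 1) and 9 (replicate 2) for WT, and 6 and 7 likewise for Spen KO. These came from 3 and 5 genes in WT and 3 and 4 genes in Spen KO, where 13.2%, 14.2%, 10.6% and 11.6% of all genes had an Oct4 peak in their window. Tet2 and Tet3 had one in each of the 4 libraries, a condition met by 2.11% of all genes. Longer genes have longer windows, and the windows here ranged from 60.2 kb at Uhrf1 to 148 kb at Dnmt3a.

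Tet2 had 1 Oct4 peak in each WT library and 4 in each Spen KO library. The groups did not overlap and differed by 3 peaks (exact permutation test, p = 0.333, the smallest value possible). Tet3 had 2 in each WT library and 1 in each Spen KO library, a difference of -1 with the same p. The share of all genes whose counts separate the genotypes in this way was not computed. The remaining 6 genes gave p = 1 in the exact permutation test, and 2 of them, Dnmt1 and Dnmt3l, had 0 peaks in every library.

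Peaks with summits at most 500 bp apart were joined into 13 sites, of which 7 were called in 1 library, 4 in 2 and 2 in all 4. The site in an intron of Tet2, 19.6 kb from the start, was enriched over input 7.31-fold and 9.50-fold in WT against 9.97-fold and 13.3-fold in Spen KO (replicate 1 first). Both Spen KO values lay above both WT values, with means of 11.7 ± 2.39 (SD, n = 2) and 8.41 ± 1.55 (SD, n = 2), and the exact permutation p was 0.333. It lay inside H3K27Ac peaks of both genotypes. By mean enrichment it ranked 52 among the 276 sites of the genome called in all 4 libraries. At how many of these sites both Spen KO values lay above both WT values was not computed. The site in an intron of Tet3, at 19.7 kb, had 6.71 and 16.5 in WT against 8.73 and 7.37 in Spen KO. Here the groups overlapped, with a WT mean of 11.6 ± 6.90 (SD, n = 2) against 8.05 ± 0.966 (SD, n = 2) without Spen (exact permutation test, p = 1), and the site ranked 65. No H3K4me3, H3K27Ac or H3K9me3 peak was called over it in either genotype.

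A further Tet2 site at 11.6 kb was called only in the Spen KO libraries, at 7.91 and 8.80, inside H3K27Ac that was present in both genotypes. Each Spen KO library had 2 peaks within it, which accounts for part of the count of 4. The remaining sites in 2 libraries were called in 1 library of each genotype. They lay at 6.09 kb inside Tet1 (6.97 in WT replicate 2, 7.89 in Spen KO replicate 2), at -6.25 kb of Dnmt3b (5.70 and 5.59 in the same libraries) and 2.03 kb inside Dnmt3a (5.07 in WT replicate 2, 5.61 in Spen KO replicate 1). Of the 4 peaks of WT replicate 1, the library with most of its peaks at starts, one was at the start of Tet3 and one near that of Kdm4b, and neither was found in another library. The other sites of 1 library lay at 84.0 kb in Dnmt3a (5.07), -9.90 kb of Dnmt3b (7.32) and -14.5 kb of Tet3 (4.34) in WT replicate 2, at 10.3 kb in Tet2 (6.85) in Spen KO replicate 1 and at 25.4 kb in Tet2 (6.83) in Spen KO replicate 2.

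**Figure D5:**
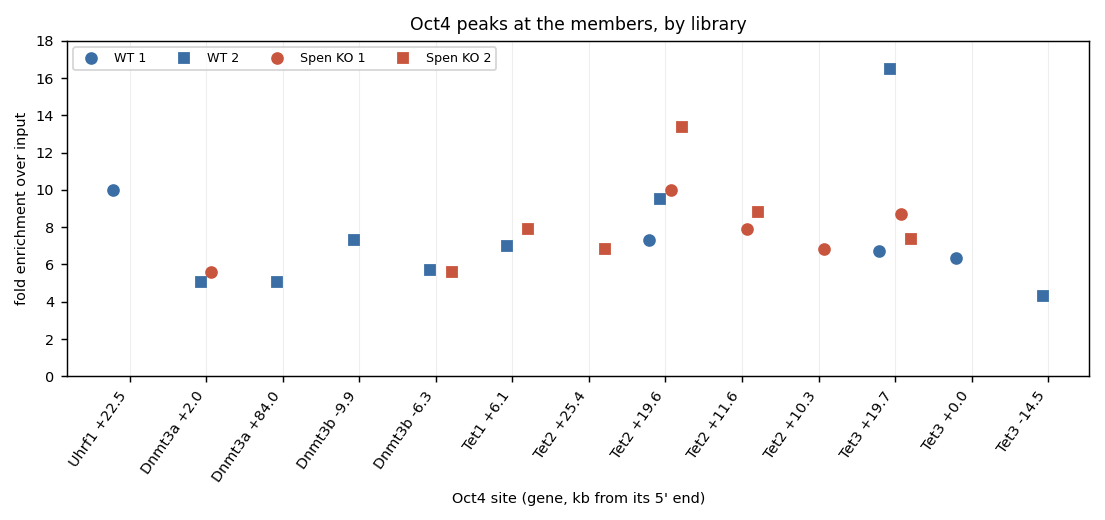
Fold enrichment over input of each Oct4 peak at the 13 sites, labelled by gene and distance in kb from its 5′ end, with WT libraries in blue, Spen KO libraries in red, circles for replicate 1 and squares for replicate 2. Only the sites at 19.6 kb in Tet2 and 19.7 kb in Tet3 have a value in every library.

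The 200 bases around the summits of those sites were read from mm9 on the strand of the gene and searched on both strands for the Oct4 octamer ATGCAAAT, its first 7 letters ATGCAAA, the octamer with any letter at 1 position, ATGCNAAT, and the Sox motif CATTGT. A match to the octamer is also a match to the next 2 forms. The 3 Tet sites that carried the Oct4 results are shown, with matches in capitals.
Tet2 at 19.6 kb (chr3:133187702-133187901, minus strand, 4 libraries): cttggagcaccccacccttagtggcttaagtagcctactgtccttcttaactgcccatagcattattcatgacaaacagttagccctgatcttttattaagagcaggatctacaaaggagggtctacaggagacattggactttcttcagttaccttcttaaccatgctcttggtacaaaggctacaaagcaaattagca
Tet3 at 19.7 kb (chr6:83371832-83372031, minus strand, 4 libraries): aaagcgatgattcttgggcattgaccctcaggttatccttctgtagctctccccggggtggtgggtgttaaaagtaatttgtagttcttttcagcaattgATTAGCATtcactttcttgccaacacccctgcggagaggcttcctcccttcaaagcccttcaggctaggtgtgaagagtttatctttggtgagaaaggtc
Tet2 at 11.6 kb (chr3:133195646-133195845, minus strand, both Spen KO libraries): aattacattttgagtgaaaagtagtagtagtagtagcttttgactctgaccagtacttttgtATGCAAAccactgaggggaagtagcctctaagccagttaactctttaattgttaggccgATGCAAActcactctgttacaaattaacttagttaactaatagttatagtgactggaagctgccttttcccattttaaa
The Tet2 site at 11.6 kb held 2 matches to ATGCAAA, the Tet3 site held 1 match to ATGCNAAT on the other strand, and the Tet2 site at 19.6 kb held none of the 4. In windows of the same length at all Oct4 summits, ATGCAAAT was found in 3.22 to 5.73% depending on the library, ATGCAAA in 5.60 to 12.1%, ATGCNAAT in 5.83 to 11.0% and CATTGT in 6.71 to 18.6%. Windows placed 2000 bp away held ATGCAAAT in 0.957 to 1.46%, ATGCAAA in 3.22 to 4.12%, ATGCNAAT in 2.05 to 2.63% and CATTGT in 10.3 to 10.9%. In WT replicate 1, CATTGT was less common at the summits (6.71%) than away from them (10.4%). A match describes the letters of the window and does not show which factor was bound.

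The other genes of the pathway were taken from a list of 34, all of which were found in the annotation. H3K4me3 was at the promoter of 32 in WT and 33 in Spen KO, H3K27Ac at 18 in each, and H3K9me3 at 1 in each. Median promoter percentiles were 80.9 and 70.7 for H3K4me3 and 79.9 and 78.9 for H3K27Ac. Promoter H3K27Ac was called in WT alone at Mbd2, a reader of methylated DNA (percentile 46.9), and Dppa3, which protects methylation in the zygote (38.9). Neil1, a glycosylase of base excision repair, was among those with a call in Spen KO alone (5.12). Smug1, also a repair glycosylase, had promoter H3K4me3 in Spen KO alone, at percentile 11.1. The promoter with H3K9me3 was that of Mbd1, a reader of methylated CpG, at percentiles 82.8 in WT and 93.0 in Spen KO.

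Of the 34 windows, 7 (replicate 1) and 10 (replicate 2) had an Oct4 peak for WT, and 10 in each Spen KO library. At least 3 libraries had one at 6 of the 34, against 6.38% of all genes: Uhrf2, a relative of Uhrf1, Usp7, a deubiquitinase that binds Dnmt1 and Uhrf1, Trim28, a corepressor that keeps imprints methylated, Dppa3, Prdm14, a repressor of the Dnmt3 genes in mESCs, and Gadd45a, a stress-response gene linked to demethylation. Of these, Uhrf2, Trim28 and Dppa3 had one in all 4. Dppa3 resembled Tet2 in its counts, with 1 and 1 peaks in WT against 3 and 3 in Spen KO, and no test was made for genes of this list.

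For Tet1, Uhrf1 and Tet2, the members with the highest mean H3K27Ac percentile, the nearest genes were sought over the 8 promoter percentiles (2 libraries, 2 genotypes, H3K4me3 and H3K27Ac) among 3722 genes with all of them. Tet1 was nearest to 2410137M14Rik and Rbm39 (Euclidean distances of 17.98 and 19.04 percentile points), Uhrf1 to Tlk1 and Ppp1cb (15.1 and 16.2), and Tet2 to Grinl1a and Arl6ip1 (13.5 and 18.3).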

How the data were processed

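Peak lists from ChIP-seq in HATX mESCs, WT or Spen KO, were used, with groups and replicate numbers from the sample labels. Per their methods, which are written for the histone marks, the authors aligned reads to mm9 (Bowtie2), took out duplicates (Picard) and ran MACS2 against input with a q-value threshold of 0.01. Tool versions are not given in the sources used here. For H3K4me3 and H3K27Ac only peaks under 0.05 in irreproducible discovery rate (IDR) were retained, across libraries the authors call technical replicates. These deposited lists give a score per library, but neither which library is which nor the MACS2 column it came from. Peaks that disagree between libraries are lost in this step, and the spread looks smaller than it was. The deposited H3K9me3 lists hold domains of 200 bp windows with a score and a p-value or false discovery rate, of which the score was used. That form differs from the MACS2 and IDR steps above, so how these domains were called is uncertain. The deposited Oct4 lists give the fold enrichment over input and −log10 p-values and q-values per library. Scores of lists called apart are not on 1 scale, so percentiles within a list were compared. An absent peak can have narrowly missed the threshold.

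Genes were taken from GENCODE M1 on mm9 and overlap of at least 1 bp counted. The code was checked on simulated intervals. Python 3.11.15, numpy 2.4.6 and matplotlib 3.10.9 were used. The labels do not say whether the replicate numbers pair the Oct4 libraries, which were treated as unpaired in the main tests. All 8 members are named. Pathway genes were named if the promoter had H3K9me3, if its H3K4me3 or H3K27Ac call differed between genotypes, or if at least 3 libraries had Oct4. A result for a further gene under this rule is not reported here. For the 3 members with the highest mean H3K27Ac percentile, the 2 nearest genes were named. The members, gene lists and tests were chosen with earlier results of these data known. Alternatives were other promoter windows and flanks, 1 start per gene, stricter and equal-length lists, other overlap rules, the lower library score, leaving out each Oct4 library, and, added after seeing the lists, leaving out the members on chromosomes 10, 12 and 17.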

Additional observations from a re-analysis of the deposited data

How the results depend on the processing

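Of 166 values under the alternatives, 143 counted as the same, 19 moved and 4 reversed. A value counted as the same if it did not reverse and stayed within 1.5 times the main value. For Oct4 the limit was the spread between libraries over all windows, and 1 peak at single genes. A change from or to 0 was not taken as a reversal. The replicate block reuses the main differences, so its values are the same by construction. With the stronger 50% of every list, H3K4me3 peaks in the windows were 27 in WT and 21 in Spen KO, H3K27Ac peaks 22 and 19, and H3K9me3 domains in WT 1. The peaks found in 1 genotype were then 6 (WT) and 0 (Spen KO) for H3K4me3, 7 and 3 for H3K27Ac and 1 for H3K9me3 (Spen KO), and the H3K9me3 ratio of covered bases reversed to 2.40. Without a flank, H3K27Ac peaks in Spen KO were 19 and H3K9me3 domains 1 in each genotype. With 50 kb, the domains were 9 in WT and 8 in Spen KO. Lists of equal length gave 11 H3K27Ac peaks and 1 H3K9me3 domain found in WT alone. A gap of up to 1000 bp lowered H3K4me3 peaks found in WT alone to 4. By the lower library score, promoter H3K27Ac ranked lower in Spen KO at 5 members in place of 3. The fewer peaks of the shortened lists and windows follow from their construction, and the cause of the other changes was not tested. The mean number of Oct4 peaks in the windows differed by 0 between Spen KO and WT, and leaving out 1 library moved this from -2.5 (without WT replicate 1) to 2.5 (without WT replicate 2). The difference of -0.5 at each of Dnmt3a, Dnmt3b and Tet1 ranged from -1.5 (without WT replicate 1) to 0.5 (without WT replicate 2, reversed). With the replicate number as a block the difference of 0 is unchanged by construction, and a sign-flip over 2 pairs cannot give an exact p below 0.5. Deviations of the libraries numbered 1 correlated at 0.0219 over 6460 genes. As WT replicate 1 stood apart, this cannot decide whether the pairs share more than a number. Depth is unknown, which limits every absence of a peak.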
